A study of Mus musculus with 36 samples.

Results

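The genes of voltage-gated sodium channels, voltage-gated calcium channels, TRP channels and HCN channels were followed in RNA of the mouse dorsal vagal complex. Members were taken by symbol: every deposited gene whose symbol starts as Scn with a subunit letter, as Cacna, Cacnb or Cacng, as Trpc, Trpm or Trpv, or as Hcn. This gave 64 of the 24344 genes in the count table, after the opposite-strand symbol Trpc5os was left out. Of these, 63 encode channel subunits or channel auxiliary proteins and 1, Trpc4ap, encodes a protein that binds a TRP channel. They comprise 9 sodium channel alpha and 4 beta genes, 10 calcium channel alpha1 genes, 4 alpha2delta, 4 calcium channel beta and 8 gamma genes, 7 TRPC, 8 TRPM, 5 TRPV and 4 HCN genes.

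The study compared 3 inbred strains, all labelled wild type: C57BL/6J, in common laboratory use, CAST/EiJ, derived from wild mice, and NZO/HlLtJ, known for obesity and diabetes. Male and female mice of each strain received a control diet with 10% fat or a high-fat, high-sugar diet (HFHS) with 44% fat, both with fiber, from 6 to 15 weeks of age. There were 36 libraries, 3 for each of the 12 combinations of strain, diet and sex, so 12 libraries a strain and 6 for each diet within a strain. The tissue is labelled as the solitary tract nucleus with the dorsal motor nucleus of the vagus, brainstem centres that receive signals from the gut and send commands back to it. No label states that the 3 libraries of a group came from separate animals, so the p-values measure the spread between these libraries, which may in part be technical.

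Voltage-gated sodium channels carry the upstroke of the action potential. Their alpha subunit forms the pore, and beta subunits set its gating and its place in the membrane. Voltage-gated calcium channels turn electrical activity into calcium entry: L-type channels act at cell bodies and dendrites, P/Q, N and R-type channels drive transmitter release, and T-type channels open near rest and support burst firing. Alpha2delta and beta subunits bring the calcium channel pore to the membrane, and most of the brain's gamma proteins serve as auxiliary subunits of AMPA receptors (TARPs). TRP channels are cation channels opened by lipids, temperature, chemical agents or stored calcium signals, and HCN channels carry the pacemaker current that opens on hyperpolarisation. In vagal circuits these proteins together shape firing and transmitter release.

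Library totals ran from 22.03 to 49.61 M expected counts (M, 1000000), and the members held 0.421% to 0.596% of a library's counts. All 9 markers of the solitary tract and vagal motor nuclei, Chat and Dbh among them, were above 0 in every library, and their summed level lay between 90.3 and 205 counts per 1000000 (CPM). The 22 Hox genes, which are expressed from the hindbrain backwards, had very low sums in 3 male libraries on the control diet: CAST/EiJ replicates 1 and 3 (1.18 and 1.98 CPM) and NZO/HlLtJ replicate 3 (2.81 CPM). Over the remaining 33 libraries the sum ran from 20.6 to 363 CPM, with a median of 115. In the 3 libraries with little Hox RNA, 7 markers of cerebellar granule cells summed to 889 to 2184 CPM, against 129 to 1753 CPM elsewhere. There, 5 Purkinje cell markers summed to 331 to 960 CPM, against 52.0 to 556 CPM, and 5 oligodendrocyte markers to 5906 to 8828 CPM, against 8998 to 16092 CPM. NZO/HlLtJ male control 1 held 18188 CPM of pituitary hormone RNA. In bulk tissue, fewer cells of a type and less RNA per cell cannot be told apart.

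Levels were compared between genes per kilobase (kb) of the longest annotated protein-coding transcript, as CPM per kb. An order of genes by this measure depends on the length taken, and which transcripts were expressed was not tested. Among the sodium channel alpha genes, Scn1a (Nav1.1, typical of fast-firing neurons) had the highest level, 53.9 ± 6.6 CPM per kb (SD, n = 36). Scn8a (Nav1.6, the channel of nodes and mature axon initial segments) followed at 45.2 ± 4.20, and Scn1a exceeded it in all 36 libraries. Before division by length the order was reversed on average, at 517 CPM for Scn8a and 452 CPM for Scn1a. Scn2a1 (Nav1.2, found in unmyelinated axons) stood at 22.4 ± 7.28 CPM per kb and Scn3a (Nav1.3, high in the embryo) at 4.49 ± 1.09. Channels best known from sensory neurons and glia were low. Scn9a (Nav1.7) reached 1.52, Scn7a (the sodium-sensing Nax) 0.785 and Scn11a (Nav1.9) 0.0522 CPM per kb. Of the beta genes, Scn3b was lowest at 11.9 ± 2.83 CPM per kb. Scn4b, whose product supports resurgent sodium current, averaged 72.4 ± 18.6 CPM per kb and exceeded Scn2b (49.8 ± 11) in 32 of 36 libraries.

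Each class of calcium channel pore had 1 leading gene. Cacna1a, the P/Q-type pore, led the release-linked class at 27.0 ± 7.40 CPM per kb (SD, n = 36) and was above the R-type gene Cacna1e (13.8 ± 2.81) in all 36 libraries. The N-type gene Cacna1b followed at 11.4 ± 1.49, below Cacna1e in 32 libraries. Cacna1g led the T-type genes at 17.1 ± 6.19 CPM per kb, ahead of Cacna1i at 7.34 and Cacna1h at 3.48, the same order in every library. The L-type genes Cacna1d (4.76 ± 0.792) and Cacna1c (3.68 ± 0.351) lay between Cacna1i and Cacna1h on average. Before division by length, Cacna1c had the higher mean of these L-type genes, 48.5 CPM against 41.4 CPM for Cacna1d. Cacna1s of skeletal muscle and Cacna1f of the retina were under 0.1 CPM per kb on average, at 0.0763 and 0.0403. Cacna2d2 (25.7 ± 4.90) was the highest alpha2delta gene, Cacnb4 (25.3 ± 6.56) the highest beta gene, and Cacng7 (65.2 ± 4.90) the highest gamma gene. The other 3 beta genes were close: Cacnb1 stood at 14.1 ± 1.5, Cacnb2 at 12.9 ± 0.777 and Cacnb3 at 12.8 ± 2.43. Cacnb1 exceeded Cacnb2 in 28 of 36 libraries, and Cacnb2 exceeded Cacnb3 in 21.

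HCN RNA was dominated by Hcn2, the widespread pacemaker subunit of the brain, at 110 ± 16.4 CPM per kb (SD, n = 36). Hcn3 reached 4.84 ± 1.05 and Hcn4, the main cardiac subunit, 2.49 ± 0.372 CPM per kb. Among TRPC genes, Trpc1 stood highest on average, at 7.07 ± 0.629 CPM per kb. Trpm3, a channel for neurosteroids and heat, led the TRPM genes at 15.5 ± 2.90, ahead of Trpm2 (11.3 ± 1.77) and the magnesium-linked Trpm7 (10.9 ± 0.900). Trpm2, a channel opened by ADP-ribose, was above Trpm7 in 22 of 36 libraries. Trpv2 led the TRPV genes at 4.57 ± 0.540. The osmosensor gene Trpv4 averaged 1.60 with a wide range, from 0.370 to 5.56 CPM per kb, and choroid plexus markers ranged from 12 to 2996 CPM over the same libraries. That tissue is known for Trpv4, and its part in the range was not tested.

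**Figure D1:**
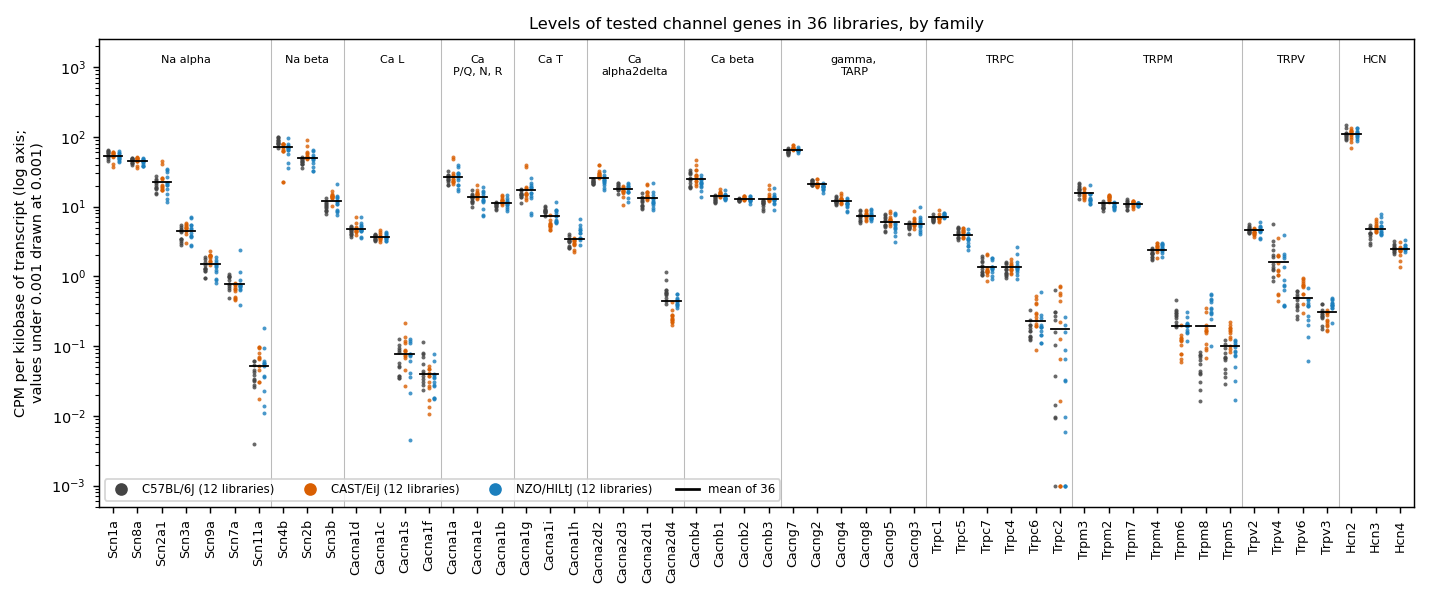
Level of tested channel genes in every library, in CPM per kb of transcript on a log axis, grouped by family and coloured by strain (12 libraries each), with black bars for the mean of 36 libraries. Of the genes drawn, Hcn2, Scn4b, Cacng7 and Scn1a stand highest, from 110 down to 53.9 CPM per kb, and Cacna1f lowest at 0.0403.

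Summed by family, most levels differed little between strains. The sodium channel alpha genes summed to 1238 ± 92.2 CPM in C57BL/6J, 1266 ± 62.1 in CAST/EiJ and 1206 ± 103 in NZO/HlLtJ (SD, n = 12 each). The widest gap relative to its spread was in the alpha2delta genes, at 294 ± 14.6, 356 ± 35.4 and 301 ± 39.8 CPM, where CAST/EiJ was highest. HCN sums were 514, 510 and 518 CPM, and TRPM sums 380, 376 and 333 CPM, in the same order of strains. These sums were not tested. Trpc4ap, the member that is no channel subunit, had a mean of 187 CPM and lay between 172 and 205 CPM in all libraries.

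The filter on low counts kept 59 of the 64 members, 58 channel genes and Trpc4ap. Scn4a (the muscle sodium channel), Trpv1 (the capsaicin receptor), Trpm1, Cacng1 and Cacng6 had too few counts to be tested, with mean levels between 0.0494 CPM for Cacng1 and 0.105 CPM for Trpv1. Scn4a and Cacng6 had their highest values, 1.69 and 1.19 CPM, in NZO/HlLtJ male control 1, the library with pituitary RNA. The members that passed are not a random draw of the 64, and what follows concerns only them.

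Strains were compared to ask how the channel genes differ with genetic background. A gene is called when its adjusted p in edgeR's quasi-likelihood test, a Benjamini-Hochberg value over 20108 genes, is under 0.05. Changes are on the log2 scale of that fit, each beside its standard error (SE); levels are in CPM. The 3 strain comparisons share libraries, so calls in one are not independent of those in another. CAST/EiJ also had lower summed levels of 6 endothelial and pericyte markers, 134 to 172 CPM, than C57BL/6J (243 to 307) and NZO/HlLtJ (267 to 328). Its oligodendrocyte marker sum of 5906 to 11350 CPM lay below that of C57BL/6J (11729 to 15047), while NZO/HlLtJ had 8828 to 16092. The part of cell makeup in the strain differences was not tested. Nor was that of mapping CAST/EiJ and NZO/HlLtJ reads to the reference build GRCm38, which is that of C57BL/6J.

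Between CAST/EiJ and C57BL/6J, 24 of the 59 tested members were called, against 52.2% of all tested genes. In CAST/EiJ 16 were higher and 8 lower, against 24.5% and 27.7% of all genes. The median log2 change was 0.09 over members and -0.01 over all genes. All 4 alpha2delta genes differed: Cacna2d2 and Cacna2d1 were higher, and Cacna2d4 and Cacna2d3 lower. Of the 7 TRPM genes, 6 differed (4 higher, 2 lower), and so did 3 of 4 sodium channel beta genes, of which Scn3b and Scn2b were higher and Scn4b lower. Only 1 of 7 TRPC genes (Trpc6), 1 of 4 L-type genes (Cacna1f), 1 of 6 gamma genes (Cacng7) and 1 of 4 HCN genes (Hcn3) was called.

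The T-type gene Cacna1i (chromosome 15, 80287238 to 80398279) is known from the thalamus and other bursting neurons. Its level was 44.8, 53.1 and 74.8 CPM (lowest, median, highest) in CAST/EiJ and 71.5, 85.3 and 100 CPM in C57BL/6J. The CAST/EiJ libraries lay below those of C57BL/6J except at the edge, where the ranges met. The log2 change was -0.68 (SE 0.08, edgeR adjusted p = 7.3e-08), with the same sign in all 4 combinations of sex and diet. Cacna2d4 (chromosome 6, 119236526 to 119352407), an alpha2delta gene best known from photoreceptors, ran from 1.17 to 2.48 CPM with a median of 1.44 in CAST/EiJ. In C57BL/6J it ran from 2.36 to 6.6 with a median of 3.35, a log2 change of -1.23 (SE 0.14, edgeR adjusted p = 5.1e-09). Trpm6 (chromosome 19, 18749983 to 18892510), a magnesium transport channel of kidney and gut, was at 0.737 ± 0.263 CPM in CAST/EiJ and 1.79 ± 0.489 in C57BL/6J (SD, n = 12 each). Its log2 change of -1.25 (SE 0.17, edgeR adjusted p = 2.4e-07) was the largest called decrease among the members.

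The alpha2delta gene of highest level moved the other way. Cacna2d2 (chromosome 9, 107399612 to 107529343) ran from 152 to 227 CPM with a median of 171 in CAST/EiJ and from 123 to 146 with a median of 131 in C57BL/6J. These libraries did not overlap, which held for 1 of 59 members in this comparison and for 12.4% of all tested genes. The log2 change was 0.40 (SE 0.07, edgeR adjusted p = 3.2e-05). Cacna2d1, the gabapentin-binding subunit, was higher by 0.38 (SE 0.12). Trpm2 (chromosome 10, 77907722 to 77970563) ran from 85.6 to 107 CPM (median 99.1) in CAST/EiJ and from 62.2 to 86.2 (median 72.3) in C57BL/6J. Only the edges of the ranges met, and the log2 change was 0.39 (SE 0.05, edgeR adjusted p = 5.3e-08).

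Of the sodium channel alpha genes, Scn9a, the channel of nociceptors and autonomic neurons, was higher in CAST/EiJ by 0.47 (SE 0.12) and Scn7a lower by 0.41 on the log2 scale (SE 0.18). The log2 changes of the 3 abundant genes were small and not called: -0.10 for Scn1a, -0.00 for Scn8a and 0.18 for Scn2a1. The beta genes Scn3b and Scn2b were higher by 0.44 (SE 0.12) and 0.35 (SE 0.09). Scn4b was at 319 ± 103 CPM in CAST/EiJ and 432 ± 45.3 CPM in C57BL/6J (SD, n = 12 each), a log2 change of -0.51 (SE 0.15, edgeR adjusted p = 0.00631). Without the 3 libraries of little Hox RNA that change was -0.28 (SE 0.08). This setting leaves CAST/EiJ male control with replicate 2 alone, so that library stands for its whole group. Cacnb3 was higher by 0.33 (SE 0.08) and Hcn3 by 0.28 (SE 0.11), while Trpm3 fell by 0.25 (SE 0.09). Without the 3 libraries of little Hox RNA 20 of the 24 calls were kept (48.3% of all genes called). Lost were Trpm3 (-0.17, edgeR adjusted p = 0.188), Cacna2d3 (-0.12, 0.171), Scn7a (0.0952) and Cacna1f (0.176), and Hcn3 lost its call without CAST/EiJ male control 1 (edgeR adjusted p = 0.0510).

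Scn2b and Scn4b are neighbours. On build GRCm38, Scn2b lies on the plus strand of chromosome 9 at 45117876 to 45130070 and Scn4b on the same strand at 45138437 to 45154152, 8.37 kb further on. Although adjacent and alike in orientation, the genes differed from C57BL/6J in opposite directions in CAST/EiJ. Within libraries, the per-kb level of Scn2b was 0.335 to 4.05 times that of Scn4b, with a median of 0.630.

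Between NZO/HlLtJ and C57BL/6J, 13 of 59 members were called, against 23.8% of all tested genes. In NZO/HlLtJ 5 were higher and 8 lower, against 11.7% and 12.2% of all genes. The members' median log2 change was -0.01 and that of all genes 0.01. No sodium channel alpha, L-type, P/Q, N or R-type, calcium channel beta or HCN gene was called. The called members lay among TRPM (4 of 7), TRPC (2 of 7), T-type (2 of 3) and gamma (2 of 6) genes, with 1 each among alpha2delta, sodium channel beta and TRPV genes.

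Trpv3, a warmth-activated channel, was at 1.27, 2.29 and 2.82 CPM (lowest, median, highest) in NZO/HlLtJ and 1.02, 1.64 and 2.36 in C57BL/6J. The ranges overlapped widely, with a log2 change of 0.43 (SE 0.13, edgeR adjusted p = 0.0131). Cacna1h, a T-type gene of sensory and other neurons, ran from 23.1 to 54.3 CPM (median 34.6) in NZO/HlLtJ and from 20.7 to 33.1 (median 26.3) in C57BL/6J. Its change of 0.42 (SE 0.10, edgeR adjusted p = 0.00212) was opposite in sign to that of Cacna1i, which was lower by 0.23 on the log2 scale (SE 0.08, a call lost in 31 of 45 alternatives). Reads of Cacna1h can share exonic bases with Tpsg1 on the opposite strand, and whether counting used strand is not given in the sources used here. In all, 19 members have an exon that overlaps another annotated gene, 16 of them on the opposite strand. Cacna2d2, Cacng2, Trpm3, Hcn3 and Cacna1a are among these. Trpc1, a subunit of mixed TRPC channels, was higher by 0.13 (SE 0.04), a call lost with the Hox level as a covariate (edgeR adjusted p = 0.0522) and without any 1 of 11 libraries.

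Trpm3 was lower in NZO/HlLtJ, at 167 ± 31.8 CPM against 218 ± 32.6 in C57BL/6J (SD, n = 12 each). Its log2 change was -0.43 (SE 0.09, edgeR adjusted p = 5.5e-04). Cacng2 (stargazin, the founding TARP) stood at 104 ± 8.19 against 122 ± 7.36 CPM, a change of -0.26 (SE 0.04, edgeR adjusted p = 2.3e-05). Cacng4, another TARP, was lower by 0.18 (SE 0.07, a call lost in 29 of 45 alternatives), Trpc5 by 0.32 (SE 0.09), and Cacna2d4 by 0.51 (SE 0.13) on the log2 scale. Scn4b was lower by 0.42 (SE 0.15, edgeR adjusted p = 0.0483), a call lost in 30 of 45 alternatives. Of these losses 28 came with 1 library left out, and the rest without the count filter or with sex as an additive term. The call was kept with the Hox level as a covariate (edgeR adjusted p = 0.00227), and with DESeq2 and limma. Those settings also kept the calls of Cacna1i and Cacng4, of whose losses 29 and 27 came with 1 library left out. Trpm6, described here after its values were seen, had a log2 change of -0.47 (SE 0.16) but the same sign in only 3 of 4 combinations of sex and diet. Leaving out C57BL/6J female HFHS 2 brought the number of called members down to 8 from 13, with 23.1% of all genes called.

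NZO/HlLtJ and CAST/EiJ differed in 20 of 59 members, against 49.8% of all tested genes. In NZO/HlLtJ 6 were higher and 14 lower, against 27.2% and 22.6% of all genes. The members' median log2 change was -0.09, and 0.01 over all genes. Trpv6, an epithelial calcium channel, was lower in NZO/HlLtJ, at 0.179, 1.09 and 1.96 CPM (lowest, median, highest) against 0.882, 2.15 and 2.79 in CAST/EiJ. The ranges overlapped, and the log2 change was -1.05 (SE 0.19, edgeR adjusted p = 4.1e-05). Trpm2 did not overlap between these strains, with 65.7 to 84.4 CPM in NZO/HlLtJ and 85.6 to 107 in CAST/EiJ (log2 change -0.40, SE 0.05, edgeR adjusted p = 2.6e-08). That held for 1 of 59 members and for 10.6% of all tested genes. Both T-type genes Cacna1h (0.49, SE 0.10) and Cacna1i (0.45, SE 0.08) were higher in NZO/HlLtJ, as were Trpm6 (0.78, SE 0.17), Cacna2d4 (0.72, SE 0.14) and Trpv3 (0.69, SE 0.13).

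Scn9a fell by 0.50 (SE 0.12), Cacnb4 by 0.41 (SE 0.12) and Cacna2d2 by 0.37 (SE 0.07) in NZO/HlLtJ relative to CAST/EiJ. Trpc5, Cacna2d1 and Cacna1e were lower by 0.30 (SE 0.09), 0.29 (SE 0.12) and 0.29 (SE 0.12). The call of Trpc5 was kept in all 45 alternatives, while those of Cacna2d1 and Cacna1e were lost in 16 and 13. This count of members moved most with single libraries. It was 31 without NZO/HlLtJ male control 3, with 50.8% of all genes called, and 35 when the Hox level of each library was added to the model as a covariate, when 52.5% of all genes were called. The 20 members called at first were also called with that covariate, and 15 more joined them, among them Scn2a1 and Cacna1a.

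**Figure D2:**
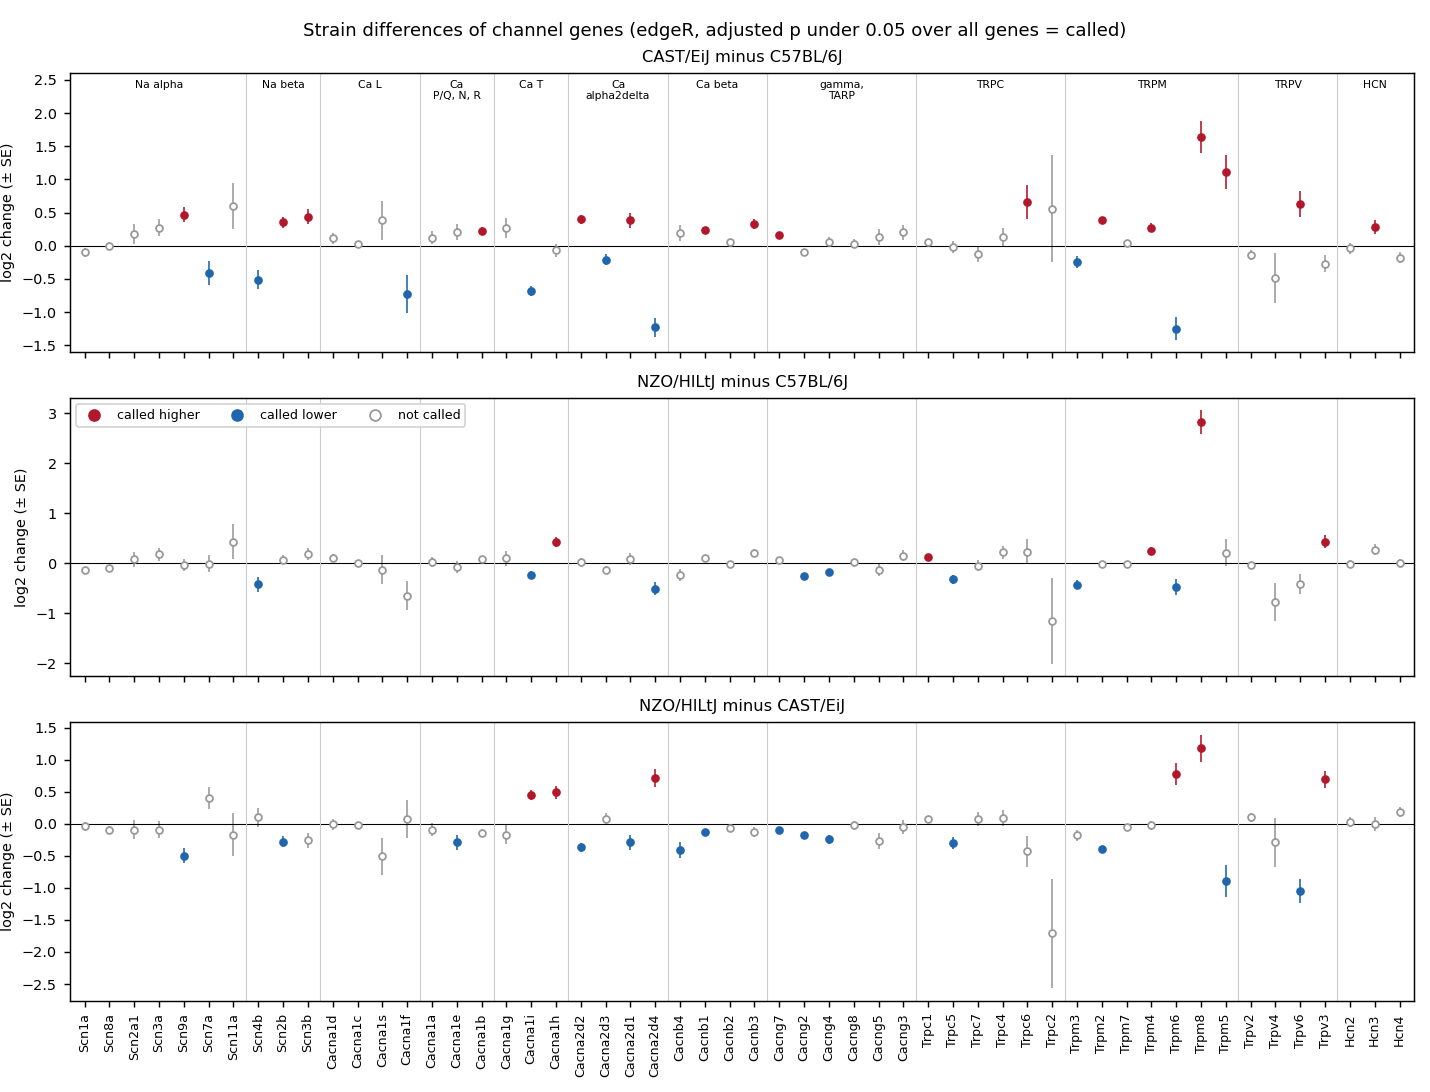
Log2 change (± SE) of tested channel genes between strains, with CAST/EiJ minus C57BL/6J at the top, NZO/HlLtJ minus C57BL/6J in the middle and NZO/HlLtJ minus CAST/EiJ at the bottom. Filled points mark called genes (red higher, blue lower); Trpm8 reaches 2.82, Trpm6 falls to -1.25, and the abundant genes Scn1a and Scn8a stay near 0 in all 3 panels.

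Trpm8, the cold and menthol receptor of sensory neurons, had the largest called change of all members. It lies outside the rule for named genes because its mean level was 0.809 CPM, and it was singled out after its values were seen. Its level was 0.0667, 0.205 and 0.340 CPM (lowest, median, highest) in C57BL/6J, 0.277, 0.681 and 1.47 in CAST/EiJ, and 0.420, 1.44 and 2.28 in NZO/HlLtJ. Every NZO/HlLtJ library was above every C57BL/6J library, which held for 1 of 59 members and 3.66% of all tested genes in that comparison. The log2 changes were 2.82 (SE 0.24, edgeR adjusted p = 4.8e-11) in NZO/HlLtJ and 1.64 (SE 0.24, edgeR adjusted p = 1.3e-06) in CAST/EiJ against C57BL/6J. Between NZO/HlLtJ and CAST/EiJ the change was 1.18 (SE 0.21, edgeR adjusted p = 1.9e-05). An antisense gene, 4930453O03Rik, overlaps Trpm8 (chromosome 1, 88277661 to 88389293), so its counts may include reads of that gene. The 4 sensory ganglion markers in the table summed to 12 to 42.4 CPM in C57BL/6J, 12.7 to 41.3 in CAST/EiJ and 11.1 to 48.7 in NZO/HlLtJ.

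**Figure D3:**
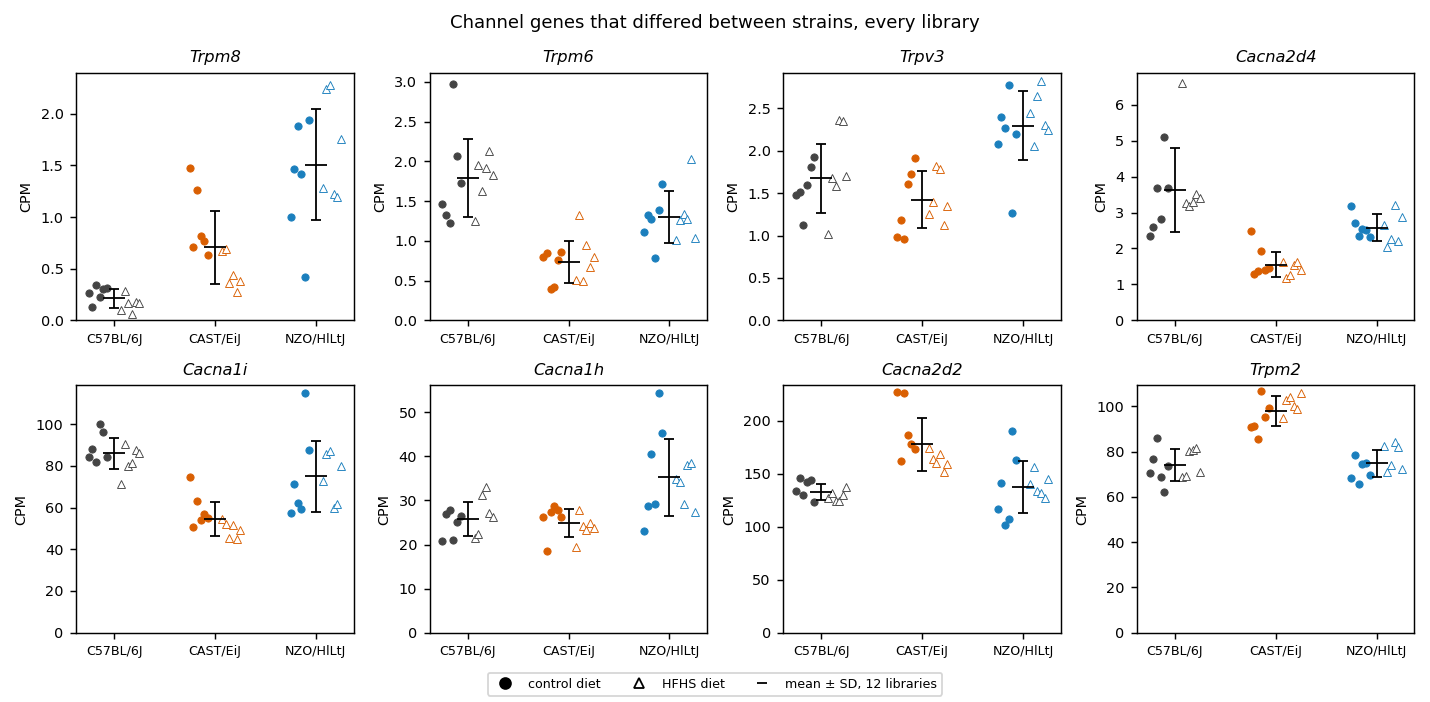
CPM of 8 channel genes in every library by strain, with filled circles for the control diet, open triangles for HFHS, and bars for mean ± SD of 12 libraries. The highest C57BL/6J library for Trpm8 is at 0.340 CPM and the lowest NZO/HlLtJ library at 0.420; Cacna1i and Cacna2d4 are lowest in CAST/EiJ, and Trpm2 and Cacna2d2 highest there.

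Within each strain, the diets were compared to see whether HFHS feeding moved these genes. No member was called in C57BL/6J, CAST/EiJ or NZO/HlLtJ with edgeR, where 0%, 0.269% and 0.0497% of all tested genes were called. At an unadjusted p under 0.05 there were 0, 16 and 2 members in the 3 strains, against 2.61%, 18.5% and 10.0% of all genes. DESeq2 and limma also called 0 members in C57BL/6J and NZO/HlLtJ, for the interaction and for sex. In CAST/EiJ, Cacna1a was at 167, 180 and 226 CPM (lowest, median, highest) on HFHS and at 185, 229 and 411 CPM on the control diet. The ranges overlapped, and the control values included both CAST/EiJ libraries with little Hox RNA, at 377 and 411 CPM. The log2 change was -0.46 (SE 0.15, edgeR adjusted p = 0.108) over all libraries. It was -0.23 (SE 0.14) without the 3 libraries of little Hox RNA, a setting in which CAST/EiJ male control is replicate 2 alone. Trpm8 was at 0.471 ± 0.171 CPM on HFHS and 0.944 ± 0.339 on control in CAST/EiJ (SD, n = 6 each, log2 change -0.98, SE 0.31, edgeR adjusted p = 0.101). The change of Trpm8 was -0.66 (SE 0.30) without the 3 libraries of little Hox RNA.

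Other tools and libraries gave some calls for diet in CAST/EiJ. DESeq2 called 3 members, among them Cacna1a lower and Scn4b higher on HFHS, beside 3.74% of all genes, and limma on the deposited log2 values called Scn4b alone, beside 1.38%. Leaving out CAST/EiJ male control 2, with 60.6 CPM of Hox, called 7 members in edgeR (9.41% of all genes). Leaving out NZO/HlLtJ male control 3 called 2, among them Trpm8 (2.02%). With the Hox level as a covariate the changes of Cacna1a and Scn4b were 0.07 (SE 0.10) and 0.02 (SE 0.14). No member and 0% of all genes was called in that setting. CAST/EiJ libraries had a Hox sum of 229 to 325 CPM on HFHS and 1.18 to 241 CPM on control, so diet and Hox level were partly aligned there. Hox was not the only such difference. In CAST/EiJ, 5 red blood cell markers summed to 210 to 387 CPM on HFHS and 659 to 2628 CPM on control, without overlap. The median Hox sum in C57BL/6J was 171 CPM on HFHS and 50.1 CPM on control. The part of these differences in the diet results was not tested.

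In NZO/HlLtJ the smallest p belonged to Trpm4, a calcium-activated cation channel, with a log2 change of 0.23 (SE 0.09, edgeR adjusted p = 0.394). Scn8a (0.17, SE 0.08) and Trpv6 (0.57, SE 0.28) followed. When the Hox level was added, 1 member was called in NZO/HlLtJ, with 0.264% of all genes. Without the 3 libraries of little Hox RNA, Cacna1g was called higher on HFHS (0.52, SE 0.11, edgeR adjusted p = 0.0248, 0.799% of all genes). NZO/HlLtJ male control was then replicates 1 and 2 alone, at 62.7 and 68.3 CPM of Cacna1g, against 113 to 156 CPM in males on HFHS. Replicate 1 is the library with pituitary RNA. In NZO/HlLtJ females Cacna1g was at 132 to 170 CPM on control and 121 to 182 CPM on HFHS. Over all libraries the diet change of Cacna1g in NZO/HlLtJ was 0.12 (SE 0.21). In C57BL/6J the smallest p belonged to Trpm8 (log2 change -0.69, SE 0.39), Cacng7 (0.07, SE 0.04) and Trpv4 (0.89, SE 0.53), with edgeR adjusted p = 1.000 for each.

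The difference of the diet effect between strains was tested as an interaction, and no member and 0% of all genes was called with edgeR, while 3 members had an unadjusted p under 0.05, against 8.58% of all genes. Among these were Trpm8 and Cacna1a, with edgeR adjusted p = 0.502 and 0.573. The diet effect of Trpm8 in NZO/HlLtJ exceeded that in CAST/EiJ by 1.25 (SE 0.41, 95% interval 0.44 to 2.06) and that of Cacna1a by 0.55 (SE 0.21, 95% interval 0.14 to 0.96). Neither passed the threshold over all genes. Sex gave no call among the members, beside 0.0796% of all genes, and 1 member had an unadjusted p under 0.05, against 5.09% of all genes. Scn9a and Cacna1f had log2 changes, male minus female, of 0.19 (SE 0.10) and 0.44 (SE 0.24), neither called.

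The members were then set against the Hox level of each library. A slope was fitted within the 12 groups: the change in log2 CPM for each unit of log2(summed Hox CPM + 1). By edgeR's quasi-likelihood test, 29 of 59 members (49.2%) had a called slope, against 18.0% of all tested genes. Of these, 22 fell and 7 rose with the Hox level, against 8.74% and 9.30% of all genes. The median slope was -0.04 over the members and 0.00 over all genes. All 3 P/Q, N and R-type genes, 4 of 7 TRPC genes, 3 of 6 gamma genes and 2 of 3 T-type genes fell, and no gene of these families rose. Sodium channel genes went both ways, with Scn1a, Scn8a and Scn4b rising and Scn2a1, Scn2b and Scn3b falling. So did alpha2delta genes (Cacna2d3 rose, Cacna2d1 and Cacna2d2 fell), HCN genes (Hcn2 rose, Hcn3 fell) and TRPV genes (Trpv3 rose, Trpv2 fell). Cacnb3, Cacna1c, Cacna1s and Trpm2 complete the families, the first 3 falling and Trpm2 rising.

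Among those that rose, Scn4b had the steepest slope, 0.24 (SE 0.03, edgeR adjusted p = 1.5e-06). It was at 111, 111 and 176 CPM in the 3 libraries of little Hox RNA and at 210, 388 and 501 CPM (lowest, median, highest) in the other 33, so these groups did not overlap. Hcn2 was at 221 to 275 CPM in the 3 libraries and 288 to 468 CPM in the others, again apart, with a slope of 0.10 (SE 0.02, edgeR adjusted p = 0.00547). Scn1a, at 313 to 401 CPM against 368 to 551 CPM, had a slope of 0.08 (SE 0.02), and Scn8a one of 0.06 (SE 0.02). Cacna2d3 rose by 0.13 (SE 0.02, edgeR adjusted p = 2.7e-05) and Trpv3 by 0.14 (SE 0.04) for each unit. Trpm2 had a slope of 0.04 (SE 0.02, edgeR adjusted p = 0.0404).

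Of those that fell, Cacna1g was at 216 to 328 CPM in the 3 libraries. In the others it was at 62.7, 128 and 182 CPM (lowest, median, highest), without overlap. Its slope was -0.22 (SE 0.03, edgeR adjusted p = 3.1e-05). Scn2a1 shared the slope of -0.22 (SE 0.03, edgeR adjusted p = 1.9e-05), at 304 to 403 CPM against 105 to 309 CPM. Cacng5, a TARP-related gene, stood at 29.9 to 32.5 CPM against 11.4 to 28.7 CPM, with a slope of -0.20 (SE 0.02, edgeR adjusted p = 3.3e-07). The other named slopes were -0.17 (SE 0.02) for Cacna1a, -0.16 (SE 0.03) for Cacna1e, and -0.14 for both Hcn3 (SE 0.03) and Trpc4 (SE 0.04).

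Of 59 members, 9 (15.3%) were higher in each of the 3 libraries than in any of the other 33, against 1.53% of all tested genes. They were Scn2b, Scn3b, Cacna1b, Cacna1g, Cacna2d1, Cacna2d2, Cacnb3, Cacng5 and Trpc6. Of these, all but Cacna1g and Cacng5 were also called higher in CAST/EiJ than in C57BL/6J. Below all others stood Scn4b and Hcn2, 3.39% of members against 1.33% of all genes. Unlike the slopes, these positions were not taken within groups. The 3 libraries are male controls of CAST/EiJ and NZO/HlLtJ, so strain, sex and diet are mixed with the Hox level here. Within libraries, the per-kb level of Scn2a1 was 0.711 to 1.11 times that of Scn1a in the 3 libraries, and 0.218 to 0.719 times in the others, with a median of 0.370. These genes belong to a cluster of 5 sodium channel genes on chromosome 2, in the order Scn3a, Scn2a1, Scn1a, Scn9a and Scn7a, from 65457118 to 66784914. Scn2a1 alone lies there on the plus strand. The other cluster with opposite slopes was that on chromosome 9, where Scn2b fell (-0.14, SE 0.02) and Scn4b rose. Its per-kb ratio of Scn2b to Scn4b was 1.82 to 4.05 in the 3 libraries and 0.335 to 1.47 in the others.

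**Figure D4:**
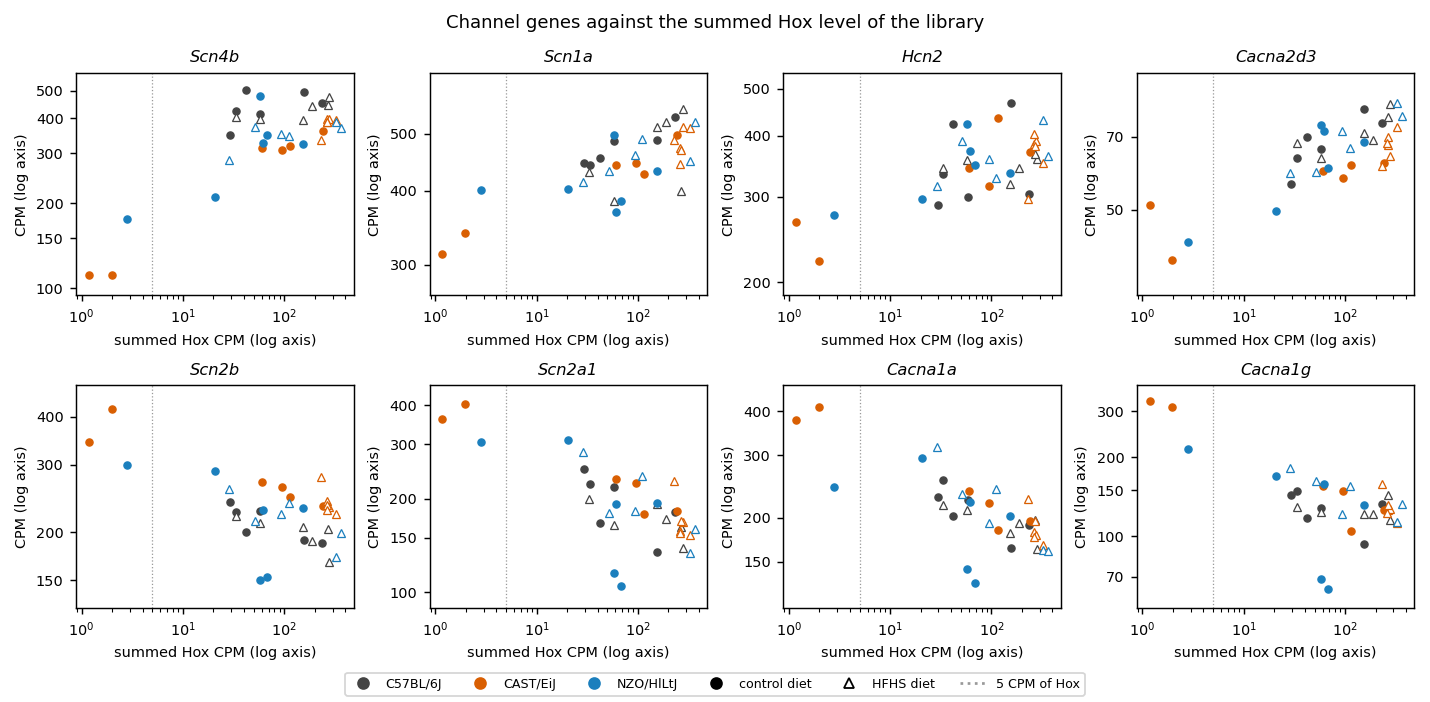
CPM of 8 channel genes against the summed Hox CPM of the library, both on log axes, coloured by strain, with filled circles for control and open triangles for HFHS; the dotted line is at 5 CPM of Hox. In the 3 libraries left of the line Scn4b lies at 111 to 176 CPM and Cacna1g at 216 to 328 CPM, outside the range of the other 33.

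The count of called slopes depended on those libraries, whose removal left CAST/EiJ male control with replicate 2 alone. Without them 8 of 62 tested members kept a call, against 6.02% of all genes: Scn4b, Cacna2d3 and Trpm2 rose, and Scn2a1, Scn2b, Cacng5 and Cacna1a were among those that fell. Slopes of Cacng5 (-0.20, SE 0.03), Scn2a1 (-0.21, SE 0.04) and Cacna1a (-0.17, SE 0.03) were close to those over 36 libraries. Those of Scn4b (0.13, SE 0.03) and Cacna1g (-0.11, SE 0.03) were smaller. Little slope was left in Cacng3 (-0.01, SE 0.04), Scn3b (-0.02, SE 0.04), Cacnb3 (-0.02, SE 0.03) and Cacna1b (-0.02, SE 0.03). Over 36 libraries those slopes were -0.12, -0.13, -0.09 and -0.08. The slope of Trpm2 went the other way, from 0.04 to 0.09 (SE 0.02). All 29 kept their sign, those with little slope included. Leaving out NZO/HlLtJ male control 3 alone gave 19 called members (11.6% of all genes), and leaving out CAST/EiJ male control 2 gave 21 (11.2%). Fitted by strain, 17 members were called in CAST/EiJ (7.63% of all genes), 20 in NZO/HlLtJ (7.65%) and 1, Cacng5, in C57BL/6J (0.889%), where no library had under 29.4 CPM of Hox. In C57BL/6J alone the slopes of Cacnb3, Cacna1b and Cacng3 were 0.04, 0.01 and 0.04, opposite in sign to the slopes over all libraries, and the other 26 kept their sign. Differences of slope between strains were not tested.

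With a granule cell marker score as a second covariate, 21 members kept a called slope, against 7.32% of all genes, and no other member joined them. The slopes of Scn2a1 and Cacna1g were then -0.14 and -0.15, those of Scn4b and Cacna2d3 0.26 and 0.11, and Hcn2 (0.06, edgeR adjusted p = 0.229) was not called. This covariate was chosen after the data had been seen. The part of Purkinje cell and oligodendrocyte RNA in the slopes was not tested.

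**Figure D5:**
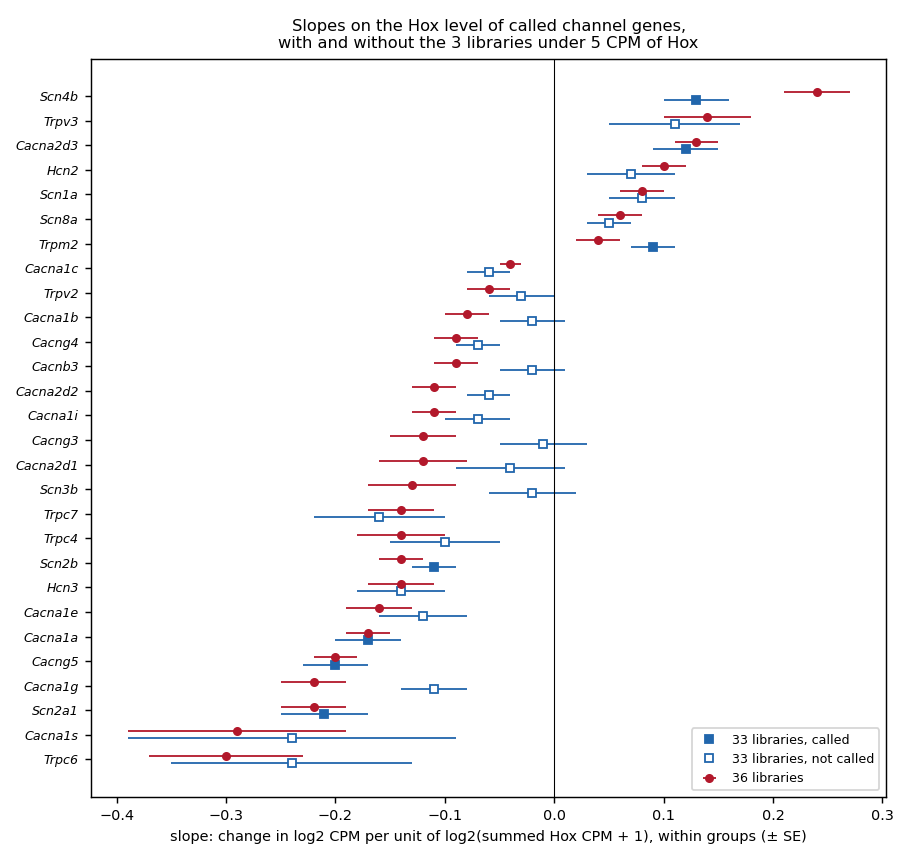
Slope on the Hox level (± SE) of called channel genes, over 36 libraries (red) and without the 3 libraries under 5 CPM of Hox (blue, filled where called). All genes drawn keep their sign, and Scn4b and Cacna1g move closest to 0 among the steep slopes, from 0.24 to 0.13 and from -0.22 to -0.11. Less steep slopes such as those of Cacng3 and Scn3b go from -0.12 to -0.01 and from -0.13 to -0.02.

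Promoter sequence of genes with opposite slopes is shown for Scn2a1 and Cacng5, which fell, and Hcn2 and Cacna2d3, which rose. Each is the 250 bases before the first RefSeq start listed for the gene on GRCm38.p6, 5′ to 3′ on the gene's strand, with CG dinucleotides in capitals, and none overlaps an annotated exon. Scn2a1 is at chr2:65620519-65620768 (plus strand), Cacng5 at chr11:107915056-107915305 (minus), Hcn2 at chr10:79716384-79716633 (plus) and Cacna2d3 at chr14:29721865-29722114 (minus).
Scn2a1: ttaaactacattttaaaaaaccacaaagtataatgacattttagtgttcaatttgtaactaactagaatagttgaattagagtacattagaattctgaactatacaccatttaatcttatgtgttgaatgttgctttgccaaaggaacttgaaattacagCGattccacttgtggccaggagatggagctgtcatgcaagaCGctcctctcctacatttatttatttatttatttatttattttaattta
Cacng5: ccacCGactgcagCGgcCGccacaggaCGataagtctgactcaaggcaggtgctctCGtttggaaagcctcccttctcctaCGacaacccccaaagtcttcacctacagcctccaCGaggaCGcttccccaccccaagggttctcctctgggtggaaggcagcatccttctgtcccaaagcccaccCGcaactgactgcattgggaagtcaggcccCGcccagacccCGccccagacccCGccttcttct
Hcn2: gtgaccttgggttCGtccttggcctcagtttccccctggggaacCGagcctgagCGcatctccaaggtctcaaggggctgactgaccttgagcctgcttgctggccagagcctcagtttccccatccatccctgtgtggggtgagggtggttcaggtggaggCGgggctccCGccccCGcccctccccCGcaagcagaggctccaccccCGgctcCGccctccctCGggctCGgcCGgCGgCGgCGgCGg
Cacna2d3: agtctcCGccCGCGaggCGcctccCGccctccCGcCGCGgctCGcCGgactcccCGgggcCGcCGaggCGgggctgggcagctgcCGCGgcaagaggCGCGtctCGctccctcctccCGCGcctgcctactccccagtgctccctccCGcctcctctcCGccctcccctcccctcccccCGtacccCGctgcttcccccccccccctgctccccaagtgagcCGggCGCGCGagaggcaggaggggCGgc
The Scn2a1 window held 2 CG dinucleotides at 29.6% G and C, and those of Cacng5, Hcn2 and Cacna2d3 held 12, 16 and 30 at 62.0%, 70.4% and 80.0%. Windows were matched for 50 of the 64 members, with a median of 7.50 CG dinucleotides against 6.00 over 27025 genes. Members with a mean of at least 10 CPM had a median of 14.0 (32 windows) and the rest 4.0 (18 windows). The GC box letters GGGCGG, on either strand, were in 36% of member windows and 32.9% of all, and TATAAA, on either strand, in 8.0% and 13.0%. The motifs share no letter, so they cannot overlap on a strand. The genes that fell had the windows with the fewest CG dinucleotides of the 4 shown, which were chosen for this display and stand for no wider comparison.

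Partner genes, 59 genes of proteins that bind, anchor or act beside these channels, were set beside the members. Of these, 57 were tested. Called partners numbered 13 between NZO/HlLtJ and C57BL/6J, 18 between CAST/EiJ and C57BL/6J, and 18 between NZO/HlLtJ and CAST/EiJ, against 23.8%, 52.2% and 49.8% of all tested genes. As shares of the tested partners these counts are 22.8%, 31.6% and 31.6%. With edgeR, 0 partners were called for diet, sex or the interaction of strain and diet. The widest difference at a level over 1 CPM was in Pkd2l1, the acid-sensing channel of neurons that contact the cerebrospinal fluid. It was at 6.5, 8.99 and 17.0 CPM (lowest, median, highest) in C57BL/6J, 1.29, 3.03 and 3.95 in CAST/EiJ and 1.96, 3.02 and 5.53 in NZO/HlLtJ. Every C57BL/6J library was above every library of the other strains, with log2 changes of -1.79 (SE 0.16, edgeR adjusted p = 8.5e-11) in CAST/EiJ and -1.61 (SE 0.16, edgeR adjusted p = 2.0e-09) in NZO/HlLtJ.

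The other partners that changed by at least 1 on the log2 scale, Mcoln3, Scnn1b, Asic3, Asic5 and Trpa1, were all under 1 CPM on average in each strain. Asic5 was listed at 0 in every CAST/EiJ library and at 0.0724 ± 0.0546 CPM in C57BL/6J (SD, n = 12). Pex5l (TRIP8b), which traffics HCN channels, was at 215 ± 43.6 CPM in CAST/EiJ against 292 ± 25.2 in C57BL/6J (SD, n = 12 each, log2 change -0.48, SE 0.08, edgeR adjusted p = 4.3e-06). Unc80, of the sodium leak channel complex, was higher in CAST/EiJ by 0.26 (SE 0.07). Ank3, whose product ankyrin-G anchors sodium channels, was lower in NZO/HlLtJ by 0.26 than in C57BL/6J (SE 0.06).

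Against the Hox level, 20 of the 57 tested partners (35.1%) had a called slope, against 18.0% of all tested genes. Of these 9 rose and 11 fell, against 9.30% and 8.74% of all genes. The steepest falls were those of the calcium release channels Itpr1 (-0.50, SE 0.10) and Ryr1 (-0.46, SE 0.09) and of their scaffold Homer3 (-0.39, SE 0.07), all known from Purkinje cells. Gem, an inhibitor of calcium channels, rose by 0.40 (SE 0.08), Pkd2l1 by 0.16 (SE 0.05) and Pex5l by 0.11 (SE 0.02). The part of cerebellar tissue in these slopes was not tested.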

How the data were processed

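PolyA RNA of 36 libraries was sequenced (paired-end, per the labels). The deposited table holds the authors' expected counts, estimated per gene and not always whole. A second deposited table holds the authors' log2 values, labelled as variance-stabilised. Per the submitters' processing notes the genome build is GRCm38 and DESeq2 was used. No source used here names the aligner, the counter or its strand setting.

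Counts were rounded and tested with edgeR 4.0.16 in R 4.3.3 (quasi-likelihood, robust estimation, TMM scaling, filterByExpr with a minimum count of 10 and total of 15), leaving 20108 genes. The model held 12 group means, with 24 residual degrees of freedom. CPM is the expected count per 1000000 of the library total. Transcript lengths and exon overlaps came from gencode release 21 of the mouse (GRCm38), gene coordinates from the deposited annotation, and promoters from RefSeq. The script was tested on simulated data. DESeq2 1.42.0 and limma 3.58.1 on the deposited log2 values were alternatives.

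Members, families, markers and partner genes were chosen with earlier results of these data known. Named were called members of at least 1 CPM with 1 sign in all 4 sex and diet combinations, up to 8 in each direction for each strain comparison. For the Hox slope they were up to 8 called members of at least 1 CPM in each direction, and for diet, interaction and sex the 3 smallest p. Partners were named by a log2 change of at least 1, and others described were picked after their values were seen. A few genes that these rules name are not reported here. Replicates were numbered in accession order. Depth was 22.03 to 49.61 M counts (M, 1000000).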

Additional observations from a re-analysis of the deposited data

How the results depend on the processing

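The 52 single results of named members were recomputed under up to 47 alternatives, most of which left out 1 of the 36 libraries in turn. None changed direction, 29 kept their call in every alternative and 23 lost it in at least 1. Counts of called members moved as follows, and the cause was not tested unless fewer libraries are named. The share of all tested genes called moved as well and is given in brackets. NZO/HlLtJ against C57BL/6J gave 13 (23.8%), and 8 to 14 when each library was left out in turn. CAST/EiJ against C57BL/6J gave 24 (52.2%), and 20 to 28. NZO/HlLtJ against CAST/EiJ gave 20 (49.8%), 35 with the Hox covariate (52.5%), and 18 to 31 over left-out libraries. Diet in CAST/EiJ gave 0 (0.269%), 3 with DESeq2 (3.74%), 1 with limma (1.38%), and 0 to 7. Diet in NZO/HlLtJ gave 0 (0.0497%), 1 with the Hox covariate (0.264%) and 1 without the libraries under 5 CPM of Hox (0.799%). The Hox slope gave 29 (18.0%), 8 without those libraries (6.02%), and 19 to 29 over left-out libraries. With fewer libraries the Hox slope gave 17 in CAST/EiJ (7.63%) and 1 in C57BL/6J libraries alone (0.889%). Diet in C57BL/6J, sex and the interaction gave 0 throughout. Several calls stood near the threshold: Scn7a (CAST/EiJ against C57BL/6J) was lost in 37 of 45 alternatives, Cacna1i, Scn4b, Cacng4 and Trpc1 (NZO/HlLtJ against C57BL/6J) in 31, 30, 29 and 12, Cacna2d1 and Cacna1e (NZO/HlLtJ against CAST/EiJ) in 16 and 13, and the Hox slope of Trpm2 in 28 of 47. In the setting without libraries under 5 CPM of Hox, CAST/EiJ male control was replicate 2 alone. The labels name no pairs of libraries, so no paired analysis was run. Members under 1 CPM, such as Trpm8 and Trpc2, rest on few reads, and a small change there was not detectable at this depth.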
